A study of Canis lupus familiaris with 13 samples.

Results

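Genes of macrophages and of the MHC class II pathway were followed through 13 primary soft tissue sarcomas of dogs. The set lists 39 gene symbols, chosen as names of macrophage genes and class II genes with earlier results of these data known. Of the 39, 34 are the single gene symbol of at least 1 probe set in the platform annotation. A probe set is the group of short probes by which the Affymetrix canine array reads 1 transcript. The 34 genes, 26 of macrophages and 8 of the class II pathway, are read by 66 of the 42924 probe sets tested, and the whole array names 15115 genes. FCGR3A, HLA-DRA, HLA-DMA, HLA-DMB and HLA-DOA are not analysed here. Of the members, 13 have 1 probe set and 21 have several. Each gene is described by its probe set of highest mean, and the other 32 probe sets are summarised, with values for those that differ most in size or direction.

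The study set untreated primary tumours labelled metastatic (MET1 to MET5, n = 5) beside tumours whose group is described as free of metastasis for at least 1 year (NM1 to NM8, n = 8). The labels give no further treatment, genotype, breed or histological type of either group, nor whether each tumour came from a different dog, so the p-values speak only of the spread among these 13 samples. All values are log2 intensities, on which a difference of 1 is a doubling.

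Macrophages are phagocytes that settle in tissues and solid tumours from blood monocytes and local precursors, and whose survival depends on CSF1R, the receptor for the growth factors CSF1 and IL34. They carry receptors for debris, microbes and antibodies, make complement C1q and destroy what they take up in lysosomes. Together with dendritic cells and B cells they present peptides to helper T cells on class II molecules, whose chains are assembled with the invariant chain CD74, loaded with peptide by DM under restraint by DO, and transcribed under the coactivator CIITA. In the dog these chains are encoded in the DLA complex.

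Sample medians lay between 6.71 and 6.94. The values of poly-A spike-in controls divided the arrays into groups, called labelling batches here. Batch A held all 5 metastatic tumours and NM5 to NM8, batch B NM1, NM3 and NM4, and batch C NM2. The labels do not name these batches, and whether the arrays were labelled apart was not tested. In the arrays of batch B, where the spike-ins were read as absent, the spike-in probe sets had values from 2.63 to 7.16 with a median of 4.14. That upper end lay above every sample median, so a value under it is not by itself absence of signal. Of the 34 members 26 lay above the upper end in all 13 tumours, 7 in some and 1, ITGAM, in none. Of 12 genes of fibroblasts and connective tissue, 11 lay above it in every tumour and 1 in 12 tumours.

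The macrophage and class II genes did not separate the outcome groups, but they differed widely between tumours of the same group and largely moved together. None of the 66 member probe sets passed the test between the groups (limma, Benjamini-Hochberg adjusted p under 0.05 over all probe sets), where 2104 of 42924 probe sets, or 4.9%, passed. Within labelling batch A, 0 of the 66 passed, against 2.78% of all probe sets. Over all 13 tumours, 2 of the 66 had an unadjusted p under 0.05, against 23.7% of all probe sets tested. The metastatic and non-metastatic values overlapped for all 66, whereas 2.63% of all probe sets had groups that did not overlap. Within batch A, 1 of the 66, the lower of both CIITA probe sets, had groups without overlap, against 9.33% of all.

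Differences are given as metastatic minus non-metastatic with the standard error of the limma fit. Over the 34 genes the median difference was 0.03, beside 0.05 over all probe sets tested. Among the 26 macrophage genes 12 differences were above 0 and 14 below, with a median of -0.01 and a range from -0.72 (CD163) to 0.41 (MARCO). At the probe sets of highest mean the 8 class II differences were above 0, from 0.03 to 0.41 with a median of 0.15, and none of them passed. Of the 9 other class II probe sets 4 had a difference below 0, those of DLA-DMA (-0.26), DLA-DMB (-0.06 and -0.02) and CD74 (-0.01), so that no common direction of the class II genes holds over all probe sets. Among all members, 14 of the 32 other probe sets differed in the direction opposite to that of their gene's probe set of highest mean, and none of the 32 passed. The smallest adjusted p among the 34 genes was 0.303 (limma).

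**Figure D1:**
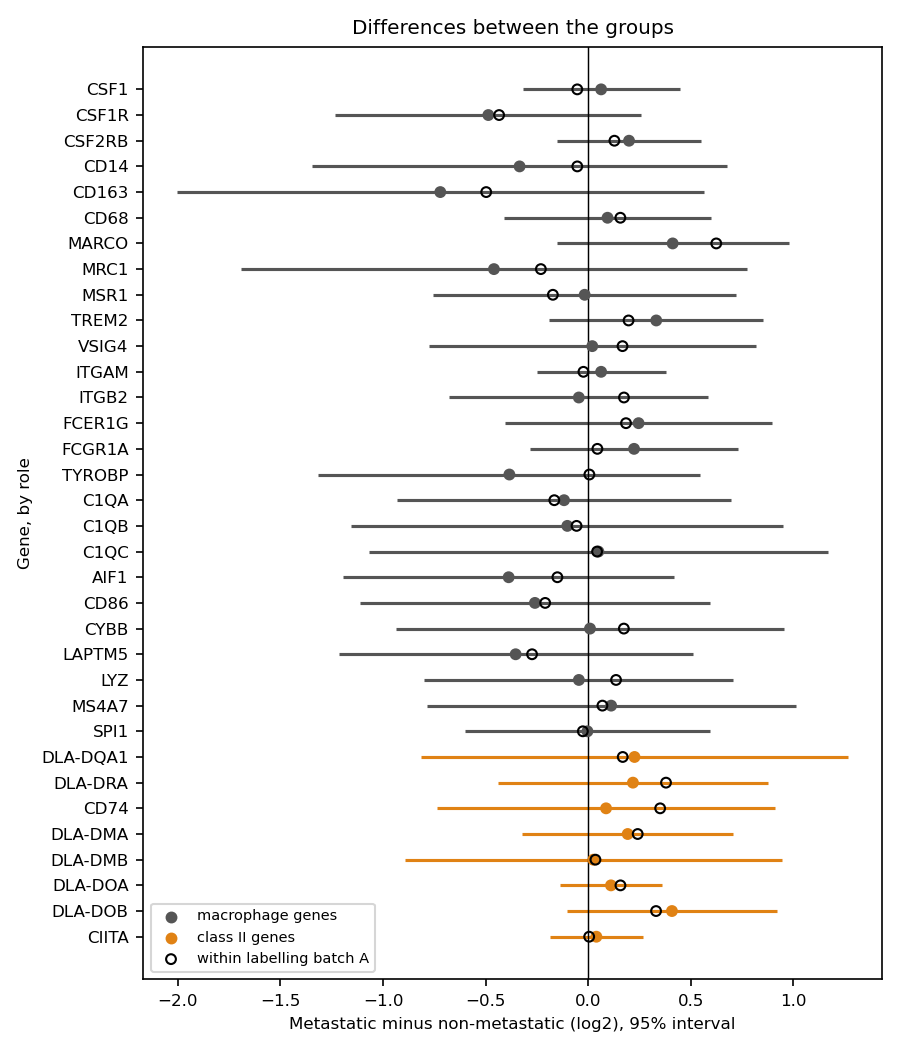
The difference between the group means of each gene (metastatic minus non-metastatic, log2; filled points) with its 95% interval from limma over 13 tumours, and the difference within labelling batch A (open circles), ordered by role. Every interval spans 0; the point estimates run from -0.72 for CD163 to 0.41 for MARCO, and those of the 8 class II genes, at these probe sets of highest mean, lie above 0.

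The spread between tumours was the larger part of the variation. The median within-group standard deviation was 0.677 over the 34 genes, beside 0.34 over all probe sets tested. The group accounted for a median of 2.87% of the variance of a member, beside 13.4% over all probe sets. CD163 had the widest range, 4.53 from the lowest to the highest tumour, a 23.1-fold range, and its within-group standard deviation of 1.18 stood at the 98.0th percentile of all probe sets. MRC1 ranged over 3.69, CD14 over 2.99 and C1QC over 2.89. The narrowest ranges were those of CIITA with 0.39, DLA-DOA with 0.57 and ITGAM with 0.96. In bulk tumour RNA, a change in the number of macrophages and a change in the RNA made by each macrophage cannot be told apart.

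The tumours with high and low values were found in both groups. MET3 was the highest of all 13 tumours for 10 of the 34 genes and MET4 for 9, and NM2 for 5. These 3 tumours were among the 3 highest for 28, 23 and 19 genes respectively. MET2 was the lowest tumour for 12 genes and NM1 for 11, and NM1, MET2 and MET5 were among the 3 lowest for 27, 22 and 21. The mean of 10 macrophage genes, each centred on its own mean, ran from -1.21 to 0.88 in the metastatic tumours and from -0.96 to 0.68 in the non-metastatic ones. These genes are AIF1, C1QA, C1QB, C1QC, CD14, CSF1R, CYBB, FCER1G, LAPTM5 and TYROBP, and their mean serves below as the macrophage core. Its lowest and highest non-metastatic values were those of NM1 in labelling batch B and NM2 in batch C. Within batch A the non-metastatic values ran from -0.52 in NM8 to 0.45 in NM7. The standard deviation was larger in the metastatic than in the non-metastatic tumours for 28 of 34 members, or 82.4%, beside 35.7% of all named genes. Within batch A this held for 32 of 34, or 94.1%, beside 65.6% of named genes. These shares are a description, as the members move together and are not independent of each other.

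**Figure D2:**
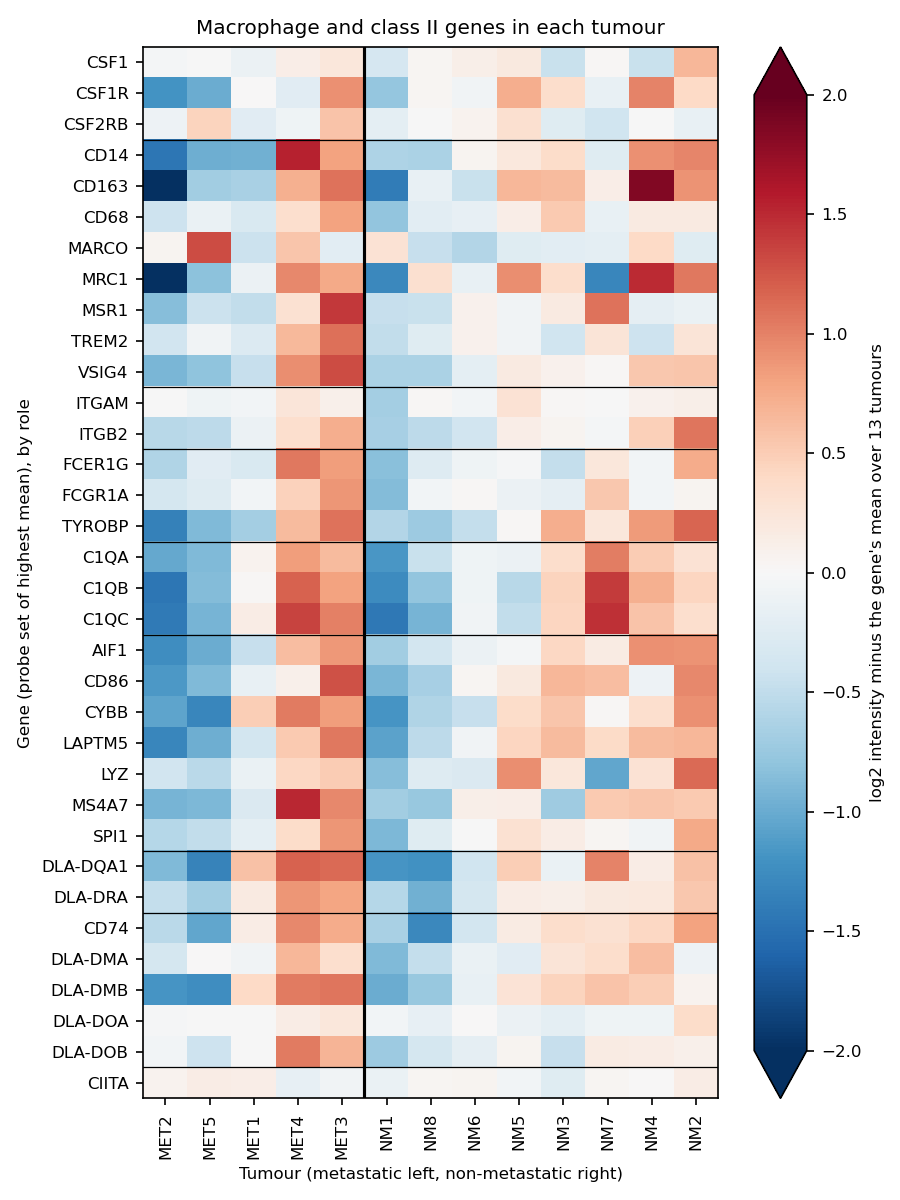
Log2 intensity of each of the 34 genes (rows, by role) in each of the 13 tumours (columns, ordered within each group by the mean of the 10 core macrophage genes), shown as the difference from the gene's mean over all tumours, with the colour saturating at 2 in either direction. MET3, MET4 and NM2 are high and MET2, MET5 and NM1 low over most rows, while MARCO, CSF2RB and CIITA do not follow them. CSF1 and DLA-DOA lie above their means in MET3, MET4 and NM2, but close to their means in MET2 and MET5.

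CSF1R, the receptor tyrosine kinase that maintains macrophages, read 8.65, 7.45, 9.56, 8.42 and 7.65 in MET1 to MET5, and 7.87, 8.84 and 9.64 as the lowest, median and highest of the 8 non-metastatic tumours. The lowest 2 tumours, MET2 and MET5, were metastatic, but MET3 lay close to the highest of all, NM4, and the groups overlapped over most of their range. Its difference of -0.49 ± 0.35 had an adjusted p of 0.397 (limma). The ligand CSF1 was almost level in the metastatic tumours, at 7.68, 7.77, 8.03, 7.93 and 7.80. In the non-metastatic tumours it read 7.35 at the lowest, 7.83 at the median and 8.47 at the highest, so that the metastatic values lay inside the non-metastatic range. The difference was 0.06 ± 0.18 (adjusted p = 0.847, limma). CSF2RB, the signalling chain shared by the receptors of GM-CSF, IL3 and IL5, read 8.14, 8.27, 8.94, 8.28 and 8.81 in MET1 to MET5. Its non-metastatic values were 7.96, 8.29 and 8.69 at the lowest, median and highest. MET3 and MET5 stood above all non-metastatic tumours and the other 3 metastatic tumours among them, with a difference of 0.20 ± 0.16 (adjusted p = 0.464, limma). Its other probe sets differed by -0.01 and -0.16.

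Among the scavenger and pattern receptors, CD163 takes up haemoglobin bound to haptoglobin and marks tissue macrophages. It read 8.88, 6.86, 10.61, 10.25 and 8.84 in MET1 to MET5, and 8.14, 9.92 and 11.39 as the lowest, median and highest non-metastatic values. MET2 lay below every other tumour and NM4 above every other. The difference was -0.72 ± 0.60 (adjusted p = 0.469, limma) and its 95% interval ran from -2 to 0.56. Of the 4 CD163 probe sets, 3 correlated with each other at r of 0.978 to 0.983 over the 13 tumours. The fourth correlated with them at r of -0.01 to 0.15, lay between 5.24 and 6.91, below 7.16 in every tumour, and differed by 0.44 (adjusted p = 0.22, limma).

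MARCO, a scavenger receptor for bacteria and particles, read 6.40, 6.88, 6.61, 7.38 and 8.14 in MET1 to MET5. Its non-metastatic values were 6.24, 6.60 and 7.23 at the lowest, median and highest. At this probe set MET5 was highest, and only MET4, MET5 and NM4 lay above 7.16. The difference was 0.41 ± 0.26 (adjusted p = 0.344, limma), and 0.62 within batch A (adjusted p = 0.317). The second MARCO probe set, with an r of 0.39 to the first, read 6.29, 5.75, 7.30, 8.37 and 7.29 in MET1 to MET5, and at most 6.77 in the non-metastatic tumours. There MET4 was highest, MET3 and MET5 lay close together below it, and the difference was 0.74 ± 0.36 (adjusted p = 0.225, limma). The place of MET5 as the highest tumour therefore rests on 1 of the 2 probe sets. TREM2, a lipid-sensing receptor that signals through TYROBP, read 7.62, 7.51, 8.99, 8.53 and 7.81 in the metastatic tumours. In the non-metastatic tumours it read 7.39, 7.73 and 8.15 at the lowest, median and highest. MET3 and MET4 stood above all non-metastatic tumours and the other 3 within their range, with a difference of 0.33 ± 0.24 (adjusted p = 0.409, limma). The other TREM2 probe sets differed by 0.14, 0.09 and 0.025, with NM2, NM3 and MET3 as the highest tumour. The place of both MET3 and MET4 above all non-metastatic tumours therefore rests on 1 of the 4 probe sets.

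The remaining receptors of this role differed by -0.46 ± 0.57 for MRC1, the mannose receptor, by -0.33 ± 0.47 for CD14, the lipopolysaccharide co-receptor, and by -0.02 ± 0.35 for MSR1, a scavenger receptor of modified lipoproteins. VSIG4, a complement receptor, differed by 0.02 ± 0.37, and CD68, a glycoprotein of lysosomal membranes, by 0.09 ± 0.23. None passed, and the adjusted p-values of these 5 genes lay between 0.642 and 0.980 (limma). The second VSIG4 probe set differed by -0.44 ± 0.54. The integrin chains ITGAM and ITGB2, which form complement receptor 3, differed by 0.06 ± 0.15 and -0.05 ± 0.29, and the other ITGB2 probe sets by 0.25 and 0.14.

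FCGR1A, the high-affinity receptor for IgG, read 9.48, 9.18, 10.42, 9.99 and 9.28 in MET1 to MET5. The lowest, median and highest non-metastatic values were 8.67, 9.47 and 10.07. Only MET3 exceeded all non-metastatic tumours, and the difference was 0.22 ± 0.24 (adjusted p = 0.574, limma). FCER1G and TYROBP, the membrane adaptors through which Fc receptors and receptors such as TREM2 signal, differed by 0.25 ± 0.30 and -0.38 ± 0.43. FCER1G lay above 7.16 in 3 tumours, MET3, MET4 and NM2.

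C1QB encodes a chain of C1q, the first component of the classical complement pathway. It read 10.78, 9.31, 11.56, 11.94 and 9.89 in the metastatic tumours. Non-metastatic tumours read 9.50 at the lowest, 10.93 at the median and 12.16 at the highest. Both groups held tumours from near the bottom to near the top of the range, and the difference was -0.10 ± 0.49 (adjusted p = 0.913, limma). C1QA and C1QC, the other chains, differed by -0.12 ± 0.38 and 0.05 ± 0.52. The highest tumour for all 3 chains was NM7.

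AIF1, an actin-bundling protein of macrophages also called IBA1, read 8.19, 7.41, 9.52, 9.27 and 7.66 in MET1 to MET5. It read 7.95, 8.72 and 9.57 at the lowest, median and highest of the non-metastatic tumours. MET2 and MET5 lay below every non-metastatic tumour, while MET3 and MET4 lay near the top of that group, and the difference was -0.39 ± 0.38 (adjusted p = 0.541, limma). The 6 further macrophage genes had differences from -0.35 ± 0.40 to 0.11 ± 0.42. They were the lysosomal membrane protein LAPTM5 at the low end, MS4A7, a membrane protein of macrophages, at the high end, and between them the costimulatory ligand CD86, the oxidase subunit CYBB, lysozyme (LYZ) and the myeloid transcription factor SPI1. Their adjusted p-values lay between 0.606 and 0.995 (limma). Of the other LAPTM5 probe sets 1 differed by 0.09, and the second LYZ probe set differed by -0.44 ± 0.45.

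**Figure D3:**
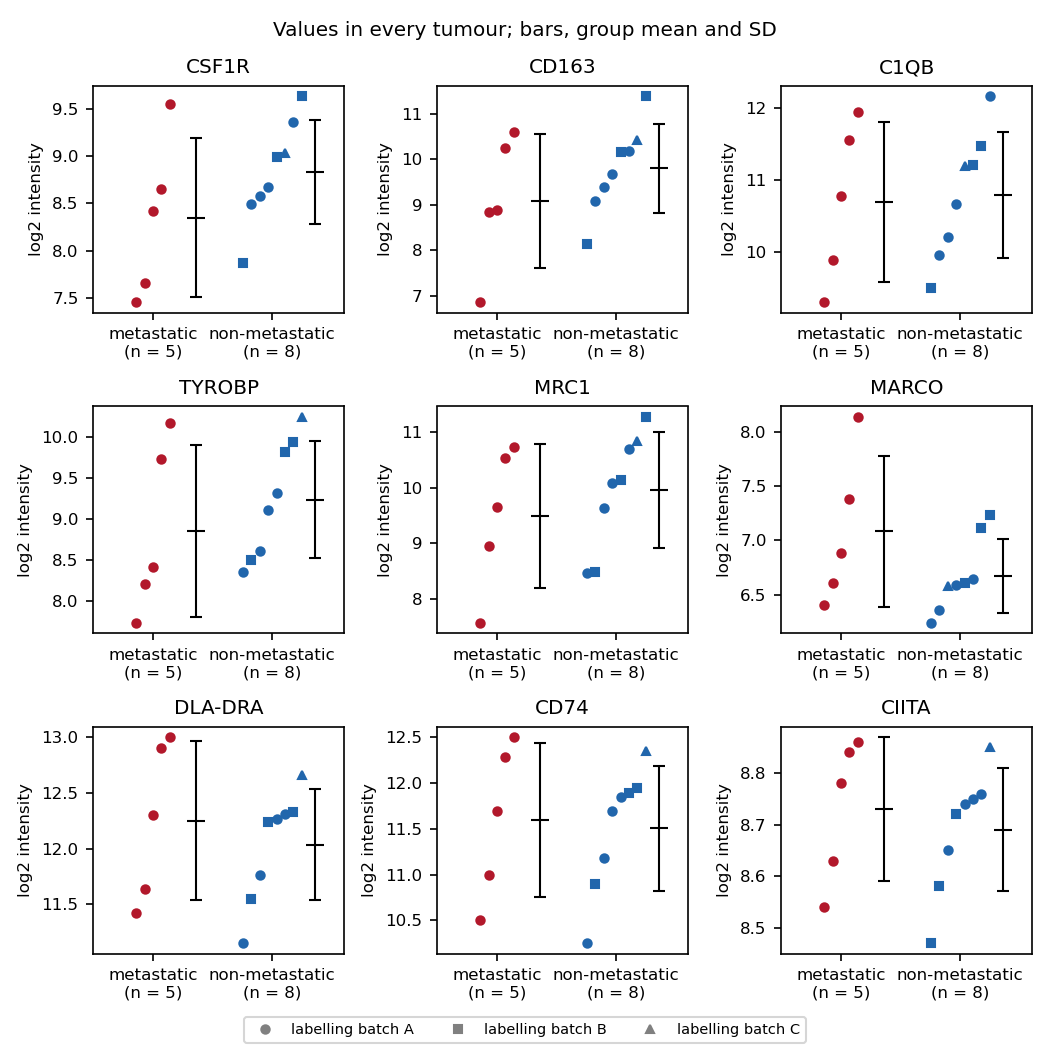
Log2 intensity of 9 members in each tumour, sorted within the metastatic (red, n = 5) and non-metastatic (blue, n = 8) groups, with labelling batches A, B and C as circles, squares and triangles and the group mean and SD as bars. In each panel the groups overlap; the vertical scale differs between panels, and CIITA spans 0.39 where CD163 spans 4.53.

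Among the class II chains, DLA-DRA, the alpha chain of DR, read 12.30, 11.64, 12.90, 13 and 11.42 in MET1 to MET5. The lowest, median and highest non-metastatic values were 11.15, 12.26 and 12.66. MET3 and MET4 stood above all non-metastatic tumours, and MET2 and MET5 lay in the lower part of their range. The difference was 0.22 ± 0.31 (adjusted p = 0.681, limma). At the second DLA-DRA probe set, which differed by 0.05, MET4 was again highest, but MET3 with 11.56 lay below NM4 with 11.65. DLA-DQA1, the alpha chain of DQ, differed by 0.23 ± 0.49 and ranged over 2.52.

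CD74 is the invariant chain, which holds the peptide groove of class II molecules shut until they reach the loading compartment. It read 11.69, 11, 12.29, 12.50 and 10.50 in the metastatic tumours. Non-metastatic tumours read 10.25 at the lowest, 11.78 at the median and 12.35 at the highest. At this probe set only MET4 exceeded NM2, the highest non-metastatic tumour, and NM8 was lowest, with a difference of 0.09 ± 0.38 (adjusted p = 0.904, limma). At both other CD74 probe sets MET3 and MET4 exceeded all non-metastatic tumours. They read 12.25 and 12.43 against at most 11.87, and 9.56 and 10.13 against at most 9.38. The lowest tumour was MET5 at the former and NM8 at the latter. DLA-DMA and DLA-DMB, the chains of DM, which exchanges the invariant chain fragment for peptide, differed by 0.19 ± 0.24 and 0.03 ± 0.43.

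DO inhibits DM. DLA-DOB, its beta chain, read 6.30, 6.25, 6.99, 7.35 and 5.89 in MET1 to MET5. In the non-metastatic tumours the lowest, median and highest values were 5.58, 6.24 and 6.47. MET3 and MET4 exceeded all non-metastatic tumours, the other 3 lay among them, and only MET4 lay above 7.16. The difference of 0.41 ± 0.24 had the smallest adjusted p of the 34 genes, 0.303 (limma). DLA-DOA, its alpha chain, was nearly flat, at 7.62, 7.61, 7.86, 7.78 and 7.63 in MET1 to MET5. The lowest, median and highest non-metastatic values were 7.43, 7.54 and 8, and 7 of the non-metastatic tumours lay no higher than 7.64. The difference was 0.11 ± 0.12 (adjusted p = 0.567, limma). Its other probe set lay below 7.16 in every tumour and differed by 0.40 (adjusted p = 0.167, limma).

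CIITA, the transactivator on which class II transcription depends, read 8.84, 8.78, 8.63, 8.54 and 8.86 in MET1 to MET5. The lowest, median and highest non-metastatic values were 8.47, 8.73 and 8.85. The tumours highest at the DLA-DRA probe set of highest mean, MET4 and MET3, were the lowest of the metastatic tumours for CIITA. The CIITA values of the groups overlapped over nearly all of their range. The difference was 0.04 ± 0.11 (adjusted p = 0.835, limma). The other CIITA probe set, which was the lower one, read 7.04, 6.66, 6.90, 7.65 and 6.74 in MET1 to MET5 and 6.29, 6.44 and 7.26 as the lowest, median and highest of the non-metastatic tumours. Of the latter NM2 alone lay above 6.62. The difference of 0.44 ± 0.19 had an adjusted p of 0.18 over all 13 tumours (limma) and of 0.204 within batch A. Without NM2 the difference was 0.54 ± 0.16 and passed (adjusted p = 0.0454, limma), and 4478 of all probe sets passed in that fit. Only MET4 and NM2 lay above 7.16 for this probe set.

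The members covaried between tumours. Over the 561 pairs of members the median Pearson r across the 13 tumours was 0.668, and 69.0% of pairs had an r over 0.5. Over the 114224055 pairs of all named genes the median was 0.03 and 13.9% had an r over 0.5. Macrophage genes had a median r of 0.693 with each other, class II genes 0.684, and macrophage genes with class II genes 0.624. With the group means subtracted the median over member pairs was 0.695, and within labelling batch A it was 0.724, beside 0.03 and 0 over all named genes. These values are a description of points that share 13 libraries, and the set was listed for functions known to belong to the same cells.

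**Figure D4:**
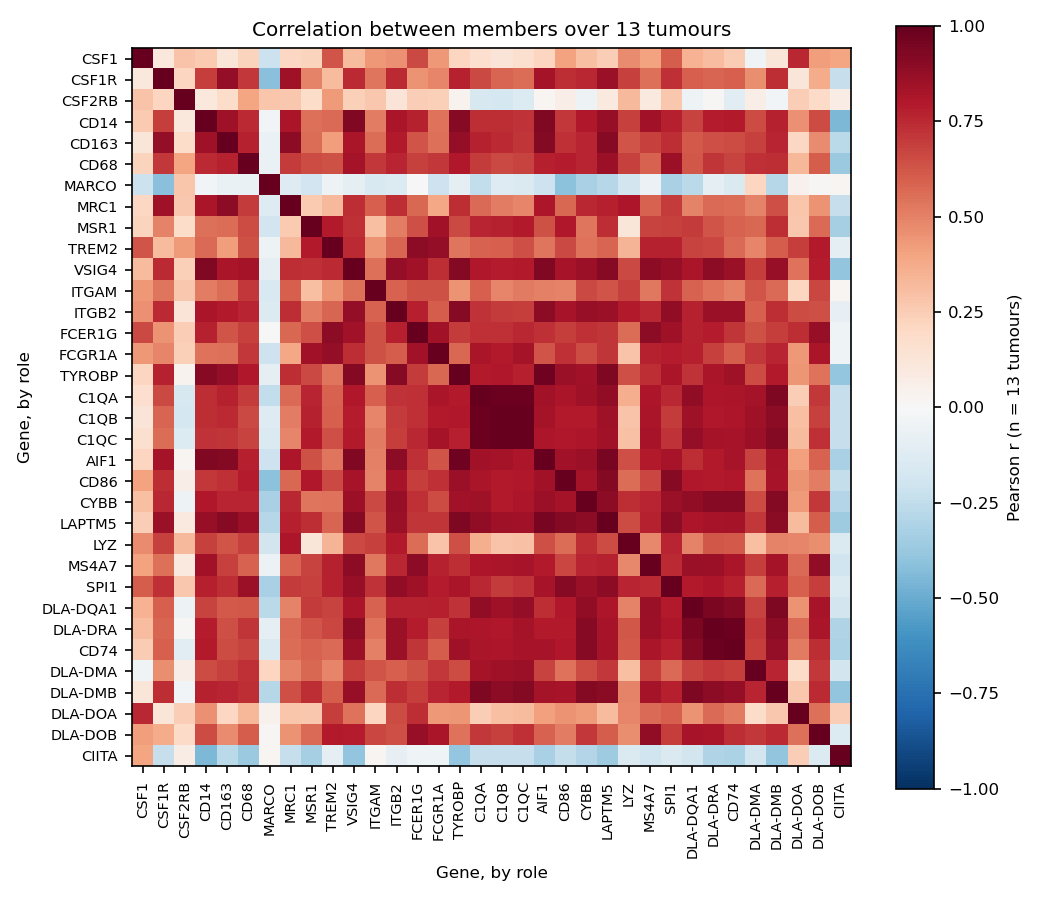
Pearson correlation of every pair of the 34 genes over the 13 tumours, ordered by role, on a colour scale from -1 to 1. Most of the field is positive, with a median of 0.668; the rows of MARCO, CSF2RB, CSF1, DLA-DOA and CIITA are paler or negative.

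A list of 16 pairs of members was tested over the 13 tumours, with 100000 permutations and adjustment over the 16 pairs. Some pairs are chains of the same molecule or otherwise known to act together, and others are only markers of the same cells. For 12 of them the correlation passed, all with a positive r, and with the group means subtracted 12 passed as well. Of all 561 member pairs 69.0% had an r over 0.5, and this test was not run on them. The 16 pairs were chosen with earlier results known, so the count does not set them apart from other pairs of members. The chains of C1q stood closest. C1QB and C1QC had an r of 0.994 (Spearman's rho 0.993), and C1QA and C1QB 0.981 (rho 0.995). For both the permutation p of 1e-05 was the smallest the permutations can give and the adjusted p was 4e-05. Without the 2 tumours farthest from the median of the first gene, r was 0.992 and 0.975, and within batch A it was 0.997 and 0.981. In RefSeq's table of dog genes (assembly UU_Cfam_GSD_1.0), C1QB, C1QC and C1QA stand next to each other on chromosome 2, with 0 other coding genes between them.

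DLA-DRA and CD74, a class II chain and its chaperone, had an r of 0.983 (rho 0.956, permutation adjusted p = 4e-05), 0.978 without the 2 farthest tumours and 0.990 within batch A. DLA-DMA and DLA-DMB correlated at 0.758 (rho 0.775, permutation adjusted p = 0.00484), and at 0.738 within batch A. The 6 DLA members lie in 1 stretch of chromosome 12 in the same gene table, with 8 other coding genes among them.

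Between macrophage and class II members, TYROBP and DLA-DRA correlated at 0.818 (rho 0.802, permutation adjusted p = 0.00199) and C1QB and CD74 at 0.808 (rho 0.813, permutation adjusted p = 0.00204). Within batch A these were 0.848 and 0.791. The mean of 5 class II genes, CD74, DLA-DMA, DLA-DMB, DLA-DQA1 and DLA-DRA, each centred, had an r of 0.926 with the macrophage core over 13 tumours, 0.922 within batch A and 0.941 within the 8 non-metastatic tumours.

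Of the other pairs that passed, AIF1 and LAPTM5 correlated at 0.952 (rho 0.946, permutation adjusted p = 4e-05), CD14 and CD163 at 0.851 (rho 0.890, adjusted p = 0.000704), and CD163 and VSIG4 at 0.819 (rho 0.930, adjusted p = 0.00157). SPI1 and its target CSF1R correlated at 0.731 (rho 0.615, permutation adjusted p = 0.00747), and TYROBP and FCER1G at 0.702 (rho 0.659, adjusted p = 0.0113). For these 5 pairs r without the 2 farthest tumours was 0.943, 0.871, 0.857, 0.620 and 0.595, and within batch A 0.971, 0.822, 0.809, 0.842 and 0.936. ITGAM and ITGB2 passed narrowly, at 0.587 (rho 0.797, permutation adjusted p = 0.0392). Their call was lost within batch A (r = 0.651, permutation adjusted p = 0.0627) and in 5 of 13 fits that left out 1 tumour. ITGAM was in no tumour above 7.16.

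CSF1 and CSF1R, ligand and receptor, did not pass, at 0.109 over 13 tumours (rho 0.198, permutation adjusted p = 0.724), and 0.667 within batch A (adjusted p = 0.057). MSR1 and MRC1, both receptors that take up glycoproteins or lipoproteins, had an r of 0.265 (rho 0.341, permutation adjusted p = 0.408). Without MET3 and NM7, the 2 tumours farthest from the median of MSR1, that r was 0.710. NM7 read 8.76 for MSR1, the highest of the non-metastatic tumours, and 8.47 for MRC1, the lowest of them, and its C1QB value of 12.16 was the highest of all 13. For LYZ it was the lowest of all 13 tumours, at 10.09. MSR1, MRC1 and LYZ in NM7 were singled out after their values were seen.

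CIITA did not follow the class II genes at the probe set of highest mean. Over 13 tumours r was -0.298 with DLA-DRA (rho -0.236, permutation adjusted p = 0.367) and -0.316 with CD74 (rho -0.341, adjusted p = 0.36). Without MET4 and NM3 these were -0.08 and -0.07. Within batch A they were -0.702 (permutation adjusted p = 0.0481), which passed, and -0.687 (adjusted p = 0.0508), which did not. Within the 8 non-metastatic tumours r was 0.146 with DLA-DRA and 0.101 with CD74, so the sign was not the same in each subset. The other CIITA probe set correlated with the first at 0.07, and with DLA-DRA at 0.657. The latter had a rho of 0.558 and an adjusted p of 0.131 (permutation, over 10 relations of both CIITA probe sets with 5 class II genes), and r was 0.407 without the 2 farthest tumours.

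**Figure D5:**
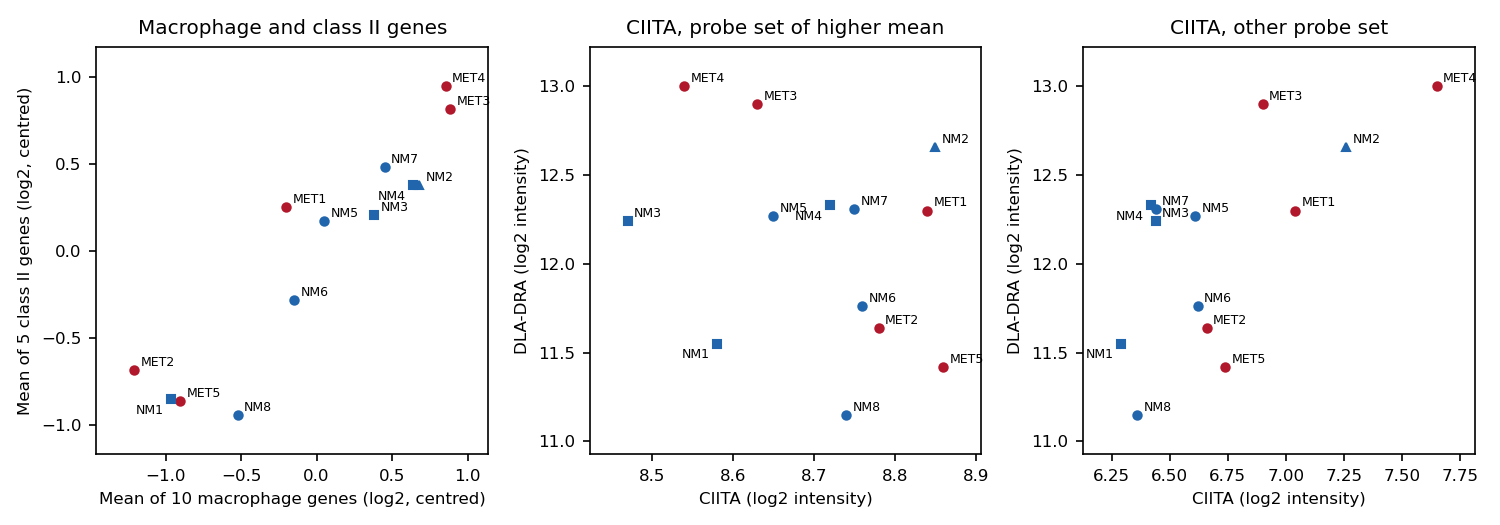
Left, the mean of 10 macrophage genes against the mean of 5 class II genes, each gene centred (log2), in the 13 tumours (metastatic red, non-metastatic blue, labelling batches A, B and C as circles, squares and triangles), with r = 0.926. Middle and right, the log2 intensity of DLA-DRA against each CIITA probe set, with r = -0.298 for the one of higher mean and 0.657 for the other.

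Set against the macrophage core mean, 5 members stood apart from the rest: MARCO had an r of -0.20, CSF2RB 0.01, CSF1 0.26, DLA-DOA 0.41 and CIITA -0.31. The other members lay between 0.600 (LYZ) and 0.964 (LAPTM5), where each of the 10 core genes was compared with the mean of the other core genes. Within batch A the order was different: CSF1 had 0.610 and DLA-DOA 0.546, above LYZ with 0.420, while MARCO had -0.19, CSF2RB 0.04 and CIITA -0.76. Of the members outside both cores, VSIG4 had the highest r, 0.935, followed by CD163 with 0.888 and CD86 with 0.883. Probe sets of the same gene gave r over 0.9 throughout for CSF1R, MRC1, C1QA, C1QC, VSIG4, CYBB, LYZ, DLA-DQA1, DLA-DMB and CD74. CSF2RB, MARCO and ITGB2 were among those with lower values, with r from -0.41 to 0.50 among the 3 CSF2RB probe sets, 0.39 for MARCO and 0.31 to 0.50 for ITGB2.

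The named genes outside the set whose values were most like the macrophage core mean over 13 tumours were BPI (r = 0.970), CD53 (0.957), CD37 (0.948), MILR1 (0.945), EVI2B (0.942), CTSS (0.942), PYCARD (0.941) and GPX1 (0.940). BPI is an antimicrobial protein known from granules of phagocytes, CD53 and CD37 are tetraspanins of leukocytes, CTSS is the protease that trims the invariant chain, and PYCARD is the inflammasome adaptor. The genes most like the class II mean were DLA-DQB1 (0.978), PYCARD (0.971), HLA-DRB1 as the annotation names it (0.967), WNT9A (0.951), CD53 (0.949), B2M (0.924), SMPDL3A (0.919) and CD37 (0.917). DLA-DQB1 and HLA-DRB1 are the beta chains that pair with DLA-DQA1 and DLA-DRA, and B2M is the light chain of class I molecules. None of these genes passed the test between the groups.

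Over all 15115 named genes at their probe sets of highest mean, 5.35% passed the test between the groups and 23.9% had an unadjusted p under 0.05, and the lists of other genes are read beside these shares. Of 23 genes of class II control and peptide loading outside the set, 1 rose and 0 fell, and the median difference was -0.06. The gene that rose was NFYB, a subunit of the NF-Y factor that binds class II promoters and many others. It read 9.31, 8.99, 8.99, 8.72 and 8.84 in MET1 to MET5, and 7.57, 7.82 and 8.30 as the lowest, median and highest of the non-metastatic tumours. All metastatic tumours lay above all non-metastatic ones. The difference was 1.10 ± 0.16 (adjusted p = 0.00311, limma), and 0.99 within batch A (adjusted p = 0.0267). The second NFYB probe set rose by 0.85 (adjusted p = 0.0313, limma), with overlapping groups. IFNGR1, a chain of the interferon gamma receptor that acts upstream of CIITA, differed by -0.92 ± 0.27 (adjusted p = 0.0666, limma), and IFI30, a lysosomal thiol reductase, by -0.99 ± 0.32 (adjusted p = 0.0853). Neither passed. Of these 23 genes 4 had an r over 0.7 with the macrophage core, the lysosomal proteases CTSS, CTSD, CTSB and LGMN.

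Of 24 genes of macrophage growth, transcription and recruitment, 0 rose and 2 fell, with a median difference of 0.06. IL34, the second ligand of CSF1R, read 7.91, 8.29, 8.42, 7.74 and 8.28 in MET1 to MET5. Its non-metastatic values were 8.71, 9.17 and 9.60 at the lowest, median and highest, so that every metastatic tumour lay below every non-metastatic one. It fell by 1.02 ± 0.18 (adjusted p = 0.00944, limma), and by 0.95 within batch A (adjusted p = 0.0388). MITF, a transcription factor of osteoclasts, melanocytes and mast cells that is also active in macrophages, read 9.60, 8.23, 9.32, 10.08 and 8.11 in MET1 to MET5. The lowest, median and highest non-metastatic values were 10.18, 11.04 and 11.52, above all metastatic values. It fell by 1.90 ± 0.34 (adjusted p = 0.00939, limma). Of its 6 probe sets 4 passed, with differences from -1.90 to -1.33. Within batch A the difference was -1.82 and did not pass (adjusted p = 0.0602), while 1 of the other MITF probe sets did (-1.29, adjusted p = 0.0441, limma). CCR2, the receptor of the monocyte attractant CCL2, differed by 0.35 ± 0.15 (adjusted p = 0.188, limma), and by 0.16 within batch A. It lay above 7.16 in 0 of 13 tumours.

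Of 33 further genes of phagocyte receptors, oxidase and lysosome, 0 passed in either direction, with 3 (9.09%) at an unadjusted p under 0.05 and a median difference of 0.06. The smallest p-values were those of CLEC7A, the beta-glucan receptor, at 0.67 ± 0.25 (adjusted p = 0.138, limma), the protease CTSH at -0.65 ± 0.28 (adjusted p = 0.187) and CD4, which canine myeloid cells can carry, at 0.38 ± 0.17 (adjusted p = 0.195). Within batch A the differences of CLEC7A, CTSH and CD4 were 0.26, -0.42 and 0.27, and none passed. The other CLEC7A and CD4 probe sets differed by 0.16 and 0.14, and the other CTSH probe set by -0.67. CLEC7A lay above 7.16 in 2 tumours and CD4 in 3. Of these, 10 had an r over 0.7 with the macrophage core, among them CTSC (0.893), TLR4 (0.826) and LCP1 (0.802).

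Markers of other cell types were read beside the members, and none of those found had a mean of 0 over the 13 tumours. Found were 9 of 14 dendritic cell genes listed, 13 of 17 of neutrophils and mast cells and 9 of 13 of B and plasma cells. Of T and NK cell genes 16 of 18 were found, and of skeletal muscle genes 10 of 11. The mean of 16 T and NK cell genes had an r of 0.542 with the macrophage core and 0.738 with the class II mean. It ran from -0.22 to 0.24 in the metastatic and from -0.19 to 0.09 in the non-metastatic tumours, and 7 of the 16 genes were in no tumour above 7.16. The means of 9 dendritic cell genes, 9 B and plasma cell genes and 13 neutrophil and mast cell genes had an r of 0.134, 0.264 and 0.04 with the macrophage core over 13 tumours. Within batch A these were 0.192, 0.169 and -0.19, and within the 8 non-metastatic tumours 0.192, 0.457 and 0.307. For 12 endothelial, 12 fibroblast and 10 skeletal muscle genes r was 0.133, 0.129 and -0.22. The skeletal muscle mean reached 1.85 in MET5, the tumour with the highest value of the first MARCO probe set, against at most 0.36 in the other tumours, and its part in that value was not tested.

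Between the groups, 0 of the T and NK, B and plasma, neutrophil and mast, endothelial and muscle genes passed, with 1, 2, 1, 1 and 3 genes (6.25%, 22.2%, 7.69%, 8.33% and 30.0%) at an unadjusted p under 0.05. Of 9 dendritic cell genes 1 rose, ZBTB46, a transcription factor of classical dendritic cells, by 0.76 ± 0.20 (adjusted p = 0.0479, limma). It did not pass within batch A (0.42, adjusted p = 0.15), nor in 10 of 13 fits that left out 1 tumour. Of 12 fibroblast genes 3 fell: DCN, the matrix proteoglycan decorin, by 1.29 ± 0.20 (adjusted p = 0.00429), the surface protease FAP by 1.58 ± 0.41 (adjusted p = 0.0421), and THY1, a surface glycoprotein, by 1.41 ± 0.37 (adjusted p = 0.0425, limma). DCN passed within batch A (adjusted p = 0.0346), where FAP and THY1 did not (0.174 and 0.133), and each of the latter was lost in 10 of 13 fits that left out 1 tumour.

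The ACTB control is read at both ends of its transcript, and the gap of 3′ over 5′ signal can widen with broken RNA or with the labelling. That gap ran from 1.40 to 2.87 in the metastatic and from 0.39 to 3.14 in the non-metastatic tumours. Its r with the macrophage core was -0.18 over 13 tumours, -0.70 within batch A and 0.29 within the 8 non-metastatic tumours. In MET3 and MET4, where the macrophage core was 0.88 and 0.85, the gap was 1.40 and 1.46. In MET1, MET5 and MET2, where the core was -0.20, -0.90 and -1.21, it was 1.99, 2.08 and 2.87, so that in the metastatic tumours, which had the larger spread for 28 of 34 members, the gap was wider where the core was lower. Its part in that spread was not tested. NM1, which was low for most members, read 0.64, and NM2, which was high, read 3.14. The gap also differed by labelling batch, with 0.39 and 0.88 in NM3 and NM4, the other tumours of batch B. In NM2, the only tumour of batch C, the same gap of the poly-A spike-ins was 3.90, against at most 0.865 in the other tumours. The part of labelling in the ACTB gap was not tested. With the gap regressed out of both genes, an alternative chosen after seeing the data, 12 of the 16 pairs passed.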

How the data were processed

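RNA of 13 primary tumours was purified on columns, labelled with biotin and hybridised to a canine array, per the labels' protocols. The authors deposited 1 table of processed intensity values, read here as log2. The scale was inferred from the values. The software is not given in the sources used here, nor is the normalization. The values were used as deposited. Of 43035 probe sets 111 controls were left out, and probe sets with several gene symbols were not named. Names came from the platform annotation, and 33 of the 34 member symbols, all but CD68, have an entry in RefSeq's gene table (UU_Cfam_GSD_1.0), used only for names and gene order. The number of arrays limits the precision.

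All 42924 probe sets were fitted with limma 3.58.1 (R 4.3.3; lmFit, eBayes) on the group alone. Tests were two-sided, p-values were adjusted by Benjamini-Hochberg, and those under 0.05 passed. The error after a difference is its standard error. The fit was tested on simulated data. Correlations used 100000 permutations, or all orders within batch A (Python 3.11.15, numpy 2.4.6, pandas 2.3.3, scipy 1.17.1, matplotlib 3.10.9). Labelling batches were read from poly-A spike-ins after the data had been seen, with 3′ spike-in values over 6 marking batches A and C. Batches B and C held only non-metastatic tumours, so values were repeated within batch A. The members, the lists and the pairs were chosen with earlier results of these data known. Each metastatic value and the lowest, median and highest non-metastatic value are given for 14 members, the limit of the rule. They are 7 genes fixed by name and the 7 others of smallest p, at most 2 a role, which left the integrins and C1QA out. From other lists up to 3 genes with the smallest p and any that passed are named, with the 8 genes most like each mean. Alternatives were the batch as a block, the ACTB value as a covariate, quantile normalization, a filter on low values, a trended variance, the mean over a gene's probe sets, each sample left out, and the replicate number as a block. Same-numbered samples of both groups deviated from their group means with r from -0.01 to 0.08. These values show no pairing by number but cannot exclude it, as NM1 to NM4 lie in other labelling batches than the metastatic tumours.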

Additional observations from a re-analysis of the deposited data

Results flagged for a closer look

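In each gene the highest and lowest tumour of each group was set against its neighbours by Dixon's test, over 68 groups of values, of which chance marks about 1 in 20. It marked 3. ITGAM was lowest in NM1 at 5.48, where the nearest non-metastatic tumour read 6.10, and all ITGAM values lay in the range seen without target. MSR1 was highest in NM7 at 8.76, where the nearest read 7.86. DLA-DOA was highest in NM2 at 8, where the nearest read 7.64, and NM2 is the only tumour of labelling batch C.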

How the results depend on the processing

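The count of 2104 probe sets past the threshold moved to 1192 within labelling batch A and to 1367 with the ACTB value as a covariate. With the replicate block over replicates 1 to 5 of both groups it was 733, against 1185 in the same samples without the block. Leaving out 1 tumour gave 856 (without MET1) to 4478 (without NM2). The count of member probe sets past it was 0 under every alternative, except that leaving out 1 tumour gave 0 to 1, the latter without NM2. The number of pairs past the threshold was 11 to 12 throughout, but the pairs were not always the same. Within batch A ITGAM and ITGB2 dropped out, and CIITA and DLA-DRA passed with a negative r of -0.702 (permutation adjusted p = 0.0481). Of the 34 member differences, none of which passed, 0 to 6 changed sign under the other settings, and 1 to 8 when 1 tumour was left out. NFYB, IL34 and DCN passed under all 21 alternatives (adjusted p up to 0.0387, 0.0413 and 0.0438, limma), MITF under all but batch A, and ZBTB46, FAP and THY1 were lost in 15 of 21 each. The r of CIITA with DLA-DRA ran from -0.70 to 0.37, the latter with the mean of both CIITA probe sets. The cause of these shifts was not tested. With 5 and 8 tumours the precision is limited, and the widest 95% interval among the members was that of CD163, from -2 to 0.56.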
